A study of Mus musculus with 30 samples.

Results

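Pdcd1 encodes PD-1, and it was followed here in mouse microglia together with the genes of its ligands and of other immune checkpoint proteins. The 10 genes are Pdcd1, Cd274, Pdcd1lg2, Vsir, Havcr2, Lag3, Cd200r1, Sirpa, Lgals9 and Cd86, out of 47643 genes listed in the expression table. Pdcd1 was selected on a result of these same data, its higher level in every group that carried Cre, and the others were chosen by name as ligands, inhibitory receptors or a costimulatory ligand. Of the 10 genes, 9 passed the filter for testing, a mean of at least 0.1 FPKM over all libraries (an expression level corrected for transcript length and library size), and Pdcd1lg2 did not.

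RNA was sequenced from microglia of 3-month-old mice, sorted from whole brain without cerebellum and olfactory bulbs as CD11b+ CD45med cells, with 1 library per mouse. The 30 libraries form 6 groups. Homo mice were Bin1 flox/flox with Cx3Cr1-Cre (5 males, 5 females), Het mice were Bin1 wt/flox with Cx3Cr1-Cre (6 males, 5 females), and WT mice had no Cre (5 males, 4 females; the study's text gives them as Bin1 wt/flox in one place and Bin1 wt in another). Cre is a knock-in at Cx3cr1, so every mouse with Cre, here called Cre-positive (21 of 30 libraries), also has a targeted Cx3cr1 allele, and Cre, the altered Cx3cr1 allele and the deletion of Bin1 cannot be told apart in a comparison with WT. Homo against Het compares Bin1 dosage with Cre present on both sides. The growth text attached to the samples describes cultured newborn microglia, pooled by genotype and treated with Tau, LPS (a bacterial activator of these cells) and ATP, instead of sorted adult cells, and which of these holds was not tested.

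PD-1 is an inhibitory receptor known best from activated T cells. When it binds PD-L1 (Cd274) or PD-L2 (Pdcd1lg2) on a neighbouring cell, phosphatases such as SHP-1 (Ptpn6) and SHP-2 (Ptpn11) are recruited to its tail and signalling from activating receptors is damped. VISTA (Vsir), TIM-3 (Havcr2), its ligand galectin-9 (Lgals9) and LAG-3 (Lag3) act in related inhibitory pathways. Microglia are in addition restrained through SIRPα (Sirpa), which binds CD47, and the CD200 receptor (Cd200r1), and they carry CD86 (Cd86), a costimulatory ligand for CD28 and CTLA-4.

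Pdcd1 lies on the minus strand of chromosome 1 at 94038305 to 94052553 (GENCODE M21, GRCm38), with no other annotated gene over it. Cd274 and Pdcd1lg2 are neighbours on the plus strand of chromosome 19, at 29367455 to 29388095 and 29410919 to 29471161. The promoters of Pdcd1, of its ligand Cd274, and of Cd244a and Cd300lf, the inhibitory receptor genes that were also called higher with Cre (described later), are printed so that the starts of these genes can be compared. Each is 300 bases from RefSeq on GRCm38.p6, from 250 bases before the start to 50 after it, read 5′ to 3′ along the gene. They lie at chr1:94052504-94052803 (minus strand), chr19:29367188-29367487 (plus), chr1:171558943-171559242 (plus) and chr11:115133943-115134242 (minus). Capitals mark matches, on either strand, to GAGGAA (a PU.1-type ETS element, from the factor family that includes a master regulator of macrophages), TGANTCA (AP-1) or GAAANNGAA (an IRF element); a match on the opposite strand appears as its reverse complement.
Pdcd1: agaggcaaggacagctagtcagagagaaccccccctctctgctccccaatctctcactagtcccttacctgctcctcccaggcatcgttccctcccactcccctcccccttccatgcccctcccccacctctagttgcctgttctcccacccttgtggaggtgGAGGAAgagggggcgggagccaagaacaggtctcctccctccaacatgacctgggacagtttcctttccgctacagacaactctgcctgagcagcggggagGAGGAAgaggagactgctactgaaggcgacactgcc
Cd274: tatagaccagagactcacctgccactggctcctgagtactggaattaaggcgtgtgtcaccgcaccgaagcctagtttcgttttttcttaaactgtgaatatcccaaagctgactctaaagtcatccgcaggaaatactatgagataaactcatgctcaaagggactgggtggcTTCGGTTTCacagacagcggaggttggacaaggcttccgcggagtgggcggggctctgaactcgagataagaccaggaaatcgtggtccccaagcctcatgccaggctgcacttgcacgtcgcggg
Cd244a: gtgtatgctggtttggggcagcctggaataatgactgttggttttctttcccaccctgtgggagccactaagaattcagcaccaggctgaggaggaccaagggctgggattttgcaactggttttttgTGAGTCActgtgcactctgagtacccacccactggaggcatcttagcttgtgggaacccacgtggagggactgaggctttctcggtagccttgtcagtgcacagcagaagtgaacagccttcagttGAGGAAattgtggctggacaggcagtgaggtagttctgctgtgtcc
Cd300lf: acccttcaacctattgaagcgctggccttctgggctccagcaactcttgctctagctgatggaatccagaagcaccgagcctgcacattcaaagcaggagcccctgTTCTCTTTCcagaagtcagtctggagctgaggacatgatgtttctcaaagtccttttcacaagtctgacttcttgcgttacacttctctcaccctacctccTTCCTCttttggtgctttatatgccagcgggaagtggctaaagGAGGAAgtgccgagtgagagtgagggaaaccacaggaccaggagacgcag

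GAGGAA occurred 2 times in the Pdcd1 window and 2 times in that of Cd300lf, 1 time in that of Cd244a, and not in that of Cd274. Of all 32851 RefSeq promoter windows of this length, 28.3% held it. The IRF element was present 1 time in the Cd274 window and 1 time in that of Cd300lf (8.56% of all windows hold it), and the AP-1 element 1 time in that of Cd244a (7.81% of all windows). Neither TTCNNNGAA, the STAT-bound GAS element (8.30% of all windows), nor GGAAAA, an NFAT core (23.4% of all windows), was found in these 4 windows. These elements can share bases, and the matches are a description of the letters only. Windows were matched for 6 of the 10 genes and not for Lag3, Cd200r1, Sirpa and Cd86.

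The libraries were checked for the targeted gene, for Cx3cr1 and for cell type before the checkpoint genes were compared. Bin1 had 230 to 290 FPKM in the 9 WT libraries, 39.5 to 55.6 in the 10 Homo libraries and 117 to 164 in 9 of the 11 Het libraries. The other Het libraries, Het-F-0206 and Het-M-0199, stood at 42.7 and 51.8 FPKM, the range of Homo, against their labels. Cx3cr1, the fractalkine receptor gene that holds Cre, had 1829 to 2344 FPKM in WT and 610 to 1243 in 20 of 21 Cre-positive libraries, but 13.9 in Het-F-0206. Het-M-0199 had 1112 FPKM of Cx3cr1. In 6 libraries of male Cre-positive mice (Het-M-0100, Het-M-0108, Het-M-0203, Homo-M-0093, Homo-M-0097 and Homo-M-0109) long noncoding RNAs were high relative to protein-coding genes, with a log2 index of 0.44 to 0.85 against -0.28 to 0.17 in the other 24. Of these 6 mice, 5 have the low mouse numbers that no WT male has. Results that rest on these libraries are given with and without them.

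All 10 microglial markers were measured at a high level, with a sum of 19746 to 28417 FPKM over 30 libraries. Markers of the cells in which PD-1 is best known were near 0. Cd3e and Cd3g, subunits of the T cell receptor complex, were listed at 0 in every library, Cd3d reached 0.176 FPKM and Cd8a 0.0519 FPKM, and 4 of the 14 T cell markers passed the filter, led by Icos at a mean of 1.22 FPKM. The 14 summed to 1.12 to 2.38 FPKM in WT and 1.497 to 3.99 in Cre-positive libraries. The 6 libraries of high lncRNA index had 2.97 to 3.99 FPKM, and the other Cre-positive libraries 1.497 to 2.44. Of 8 NK cell markers 1 passed, and Ncr1, Gzma and Gzmb were at 0 throughout, with sums of 0 to 0.229 FPKM in WT and 0 to 0.485 in Cre-positive libraries. Of 6 B cell markers, 2 passed, Pax5 was at 0 throughout, and Cd79b carried nearly the whole sum of 16.5 to 38.3 FPKM. Markers of blood-derived and border cells were lower with Cre in part. In Homo males 4 of 7 tested neutrophil markers were called lower than in WT (adjusted p under 0.05 by limma and a fold over 1.5), and in the average of the 4 contrasts within sex 3 (Lcn2, Ngp and Ltf), where 0.645% and 0.195% of all genes were called lower. Without the 6 libraries of high lncRNA index 1 was called lower in Homo males (S100a8) and 3 in the average (S100a8, Ngp and Camp). Of all genes, 0.0849% and 0.6% were then called in either direction. Summed neutrophil markers ranged over 6.80 to 349 FPKM in WT and 0 to 189.6 in Cre-positive libraries. The monocyte marker Chil3 was called lower in both and the border macrophage marker F13a1 in the average. Without the 6 libraries Chil3 and F13a1 were still called lower in the average, as was the monocyte marker Ace. None of them was then called in Homo males. The part of these cells in the results on checkpoint genes was not tested. Summed dendritic cell markers ranged over 5.33 to 7.92 FPKM in WT and 4.97 to 15.9 in Cre-positive libraries. In the 6 libraries of high lncRNA index they ranged over 9.74 to 15.9 FPKM, and in the other Cre-positive libraries over 4.97 to 7.35.

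Pdcd1 stood near 3 FPKM in WT microglia of both sexes and near 12 FPKM wherever Cre was present. In WT males the 5 libraries had 3.47, 2.31, 1.93, 4.40 and 3.72 FPKM, and in WT females the 4 libraries had 2.15, 2.49, 2.75 and 4.73. Het males ran from 9.49 through a median of 12.1 to 15.0 FPKM over 6 libraries. Homo males had 12.1, 13.6, 13.2, 10.3 and 15.7 FPKM. No Cre-positive library, at 8.36 FPKM or above, came within the range of the WT libraries, of which the highest had 4.73.

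In Het females Pdcd1 had 11.8, 27.5, 11.7, 11.5 and 9.61 FPKM, and the value of 27.5 is that of Het-F-0206, the library almost without Cx3cr1. Homo females had 10.99, 13.03, 14.1, 10.6 and 8.36 FPKM. The group means, in descending order, were 14.4 ± 7.37 FPKM in Het females (SD, n = 5), 12.96 ± 2.00 in Homo males (n = 5), 12.2 ± 2.36 in Het males (n = 6), 11.4 ± 2.24 in Homo females (n = 5), 3.17 ± 1.02 in WT males (n = 5) and 3.03 ± 1.16 in WT females (n = 4). Without Het-F-0206 the Het female mean was 11.2 ± 1.04 FPKM (n = 4), the lowest of the 4 Cre-positive means. Neighbours in this order differed by less than their SDs except at the step from Homo females to WT males.

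Against the WT mice of the same sex, the mean FPKM of Pdcd1 was 4.09-fold in Homo males, 3.87-fold in Het males, 3.77-fold in Homo females and 4.77-fold in Het females (3.69-fold without Het-F-0206). Because Pdcd1 was selected on these contrasts, the folds are a description, and no p is read for it although it was part of the fit over all genes. In bulk samples, more cells with a transcript and more of it per cell cannot be told apart, and the same holds for a lower level. The 6 libraries of high lncRNA index had 9.49 to 15.0 FPKM of Pdcd1 and the other 5 male Cre-positive libraries 9.93 to 15.7, ranges that overlap over most of their length.

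**Figure D1:**
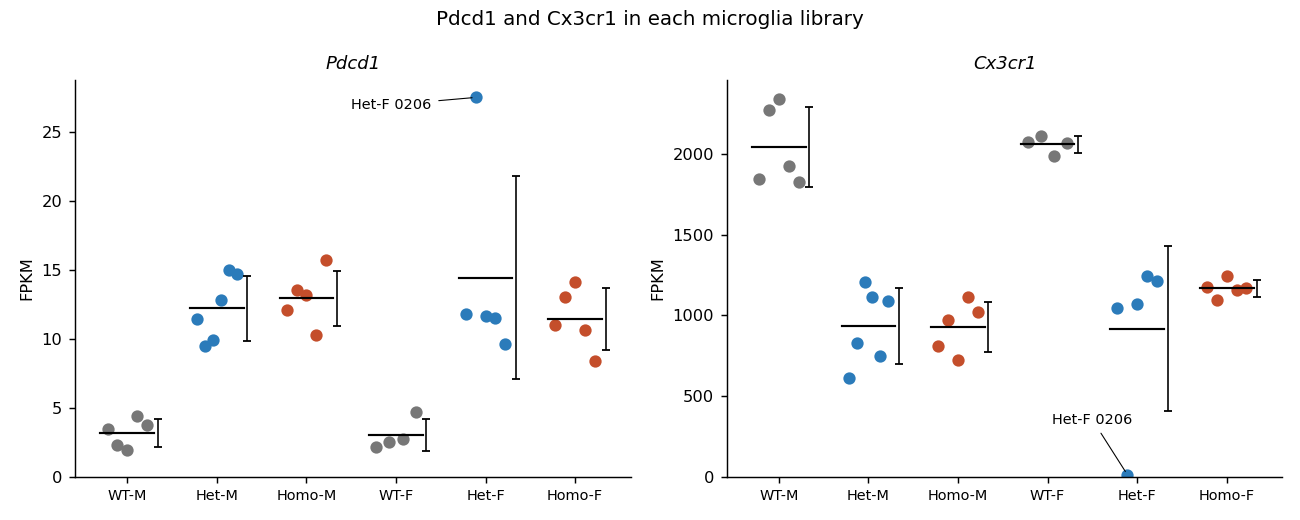
Level of Pdcd1 (left) and Cx3cr1 (right) in FPKM for each of the 30 microglia libraries, by group; each point is 1 mouse, lines are group means and bars to their right are SD. All Cre-positive libraries lie above the WT libraries for Pdcd1 and below them for Cx3cr1, and Het-F-0206 is at once the highest for Pdcd1, with 27.5 FPKM, and the lowest for Cx3cr1, with 13.9.

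Further comparisons asked whether Pdcd1 differed with Bin1 dosage or with sex. The selection asked for a higher level in every group that carried Cre and drew on the same values. These comparisons are therefore not independent of it. Tests were made with limma on log2(FPKM + 0.1) over all 16897 genes that passed the filter, and a gene was called when its Benjamini-Hochberg adjusted p was under 0.05 and its fold over 1.5. Pdcd1 in Homo against Het differed by a log2 fold change of 0.08 in males (95% confidence interval -0.39 to 0.55; adjusted p = 0.998) and of -0.24 in females (-0.73 to 0.25; adjusted p = 1). Without Het-M-0199 the male difference was 0.11 (adjusted p = 1), and without Het-F-0206 the female difference was 0.01. WT females against WT males gave -0.06 (-0.58 to 0.46; adjusted p = 1). The difference between the sexes in the change against WT, coded male minus female, was 0.05 for Homo (-0.67 to 0.76; adjusted p = 0.97) and -0.28 for Het (-0.98 to 0.42; adjusted p = 0.88). None of these tests was passed, and the intervals leave room for dosage or sex differences of up to 0.98 on the log2 scale.

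No member was called in these comparisons. The share of all genes called was 0% for Homo against Het in males, 0.0118% (2 genes) in females, 0.0473% for WT females against WT males, and 0% for both differences between the sexes. At an unadjusted p under 0.05 there was 0 of the 9 members tested in either comparison of Homo with Het. There was 1 (Cd86) between WT females and males, 1 (Lgals9) for the Homo difference between the sexes and 1 (Cd86) for the Het one. Over all genes the share at that threshold was 3.85% and 2.06% for Homo against Het in males and females, 2.91% between WT females and males, and 9.29% and 4.53% for the Homo and Het differences between the sexes.

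Against WT, Pdcd1 passed the call in every contrast, which its selection fixes and from which nothing is read, and 0 of the other 8 tested members was called by limma. Over all genes, the share called was 1.81% in Homo males, 0.154% in Het males, 0.071% in Homo females, 0.13% in Het females, and 0.823% when the 4 contrasts were averaged (Cre-positive against WT). With shares of this size, 0 of 8 is close to what the background gives. At an unadjusted p under 0.05, 4 of the 8 stood in Homo males (Cd274 and Cd86 higher, Vsir and Lgals9 lower), 1 in Het males (Cd86), 0 in Homo females, 1 in Het females (Cd274) and 2 in the average (Cd274 and Cd86). Over all genes the share at that threshold was 22.5% in Homo males, 14.2% in Het males, 3.49% in Homo females, 3.95% in Het females and 14.5% in the average. The median log2 fold change of the 8 in the average was 0.05, beside 0.01 over all genes. The contrasts of 1 sex share their WT libraries, and the average shares libraries with all of them.

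**Figure D2:**
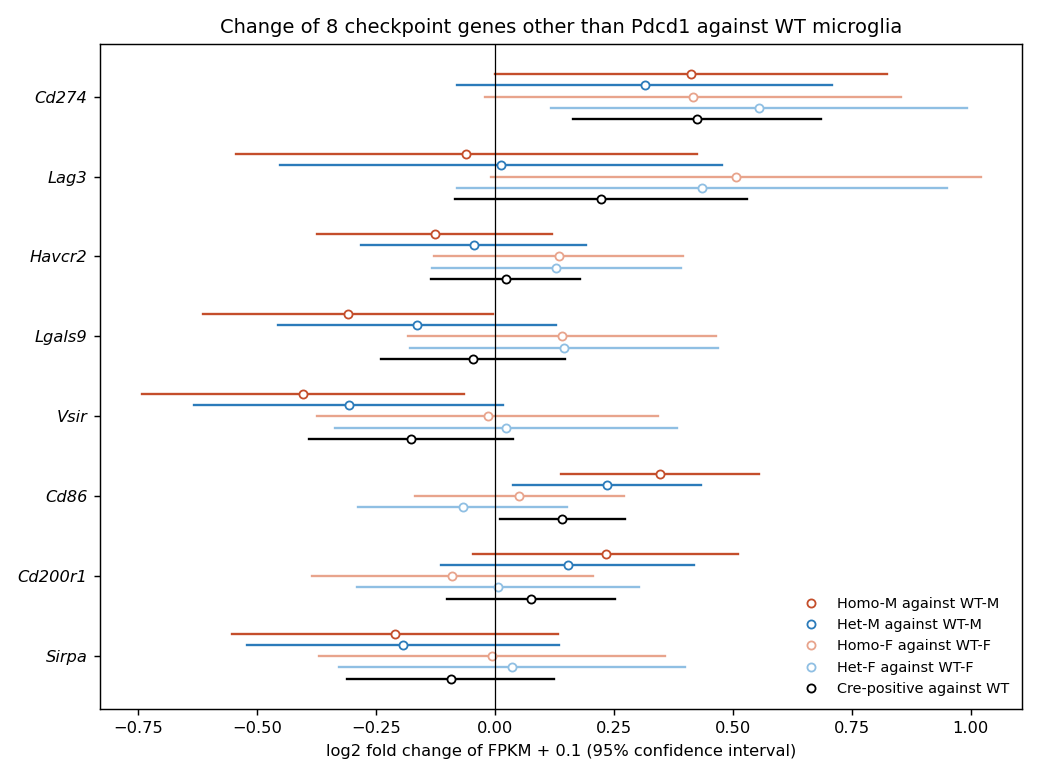
Log2 fold change of FPKM + 0.1 against WT for the 8 tested checkpoint genes other than Pdcd1, in 4 contrasts within sex and their average (black); points are limma estimates and lines 95% confidence intervals, and open points are uncalled. Each of the 8 genes is uncalled in each contrast, and Cd274 alone has its 5 estimates all above 0.3.

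Of the ligands of PD-1, Cd274 was expressed at a low level, with estimates above 0 throughout, and Pdcd1lg2 barely. Cd274 (PD-L1) had 5.02, 4.66, 3.59, 4.79 and 3.14 FPKM in WT males and 5.58, 3.92, 3.09 and 3.85 in WT females. Homo males had 4.64, 6.15, 5.56, 6.20 and 7.38 FPKM. Homo females had 7.25, 4.69, 5.43, 5.79 and 4.30 FPKM. Het libraries ran from 4.63 to 7.11 FPKM in males (median 5.31) and had 6.05, 7.70, 6.55, 6.55 and 3.78 FPKM in females, the 7.70 being Het-F-0206. The groups overlapped in each sex.

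The log2 fold change of Cd274 was 0.41 in Homo males (adjusted p = 0.22), 0.31 in Het males (0.45), 0.42 in Homo females (1) and 0.56 in Het females (0.90). In the average it was 0.42 (95% confidence interval 0.16 to 0.69; adjusted p = 0.095), or 1.38-fold by mean FPKM, short of the threshold in p and in fold. The 6 libraries of high lncRNA index had 4.63 to 6.15 FPKM, which lies within the range of the other 15 Cre-positive libraries. Those had a mean of 6.03 ± 1.14 FPKM (n = 15). With the lncRNA index as a covariate the average was 0.55 (adjusted p = 0.015) and without the 6 libraries 0.56 (adjusted p = 0.026), in p past the threshold and in fold below it. The set of mice of higher number leaves out the low numbers named earlier and also WT-F-0122, which had the highest Cd274 in WT. With that set alone the average was 0.60 (adjusted p = 0.024), and Cd274 was then called. Without Het-F-0206 and Het-M-0199 it was 0.40 (adjusted p = 0.14). An antisense gene, AC119228.1, overlaps exons of Cd274. The labels name both a kit that keeps strand and one that does not, and reads of the 2 genes may not be told apart.

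Pdcd1lg2 (PD-L2) was above 0 in 1 of the 9 WT libraries, at 0.0522 FPKM, and in 14 of the 21 Cre-positive libraries, at no more than 0.169 FPKM. All 5 Homo males listed it above 0, as did 4 of 6 Het males, 3 of 5 Het females and 2 of 5 Homo females. The gene fell under the filter. Fitted without the filter it had a log2 fold change of 0.49 in the average (adjusted p = 0.13) and 0.78 in Homo males (adjusted p = 0.087). Values of this size are at the limit of detection, where a listed 0 and a small value may differ by few fragments. Neither ligand passed the test.

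Lag3, on the minus strand of chromosome 6 at 124904361 to 124911705, encodes an inhibitory receptor for MHC class II and had a result that changed with the libraries and covariates used. WT males had 59.0, 57.1, 62.0, 44.1 and 58.5 FPKM and WT females 42.6, 63.9, 58.3 and 54.5. Homo females had 79.3, 80.6, 79.6, 78.9 and 68.6 FPKM, all above the WT females. Het females had 60.3, 69.3, 69.9, 93.3 and 79.5 FPKM, overlapping with WT in 1 library.

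In Cre-positive males Lag3 fell into separate ranges. The 6 libraries of high lncRNA index had 38.3 to 58.1 FPKM and the other 5 had 70.9 to 89.6. The log2 fold changes were -0.06 in Homo males (adjusted p = 0.91), 0.01 in Het males (0.99), 0.51 in Homo females (1) and 0.44 in Het females (1), and 0.22 in the average (95% confidence interval -0.08 to 0.53; adjusted p = 0.50). Without the 6 libraries the average was 0.49 (adjusted p = 0.0026), and with the index as a covariate 0.51 (adjusted p = 0.00013), in both cases with a fold below 1.5. With the covariate, Homo females reached 0.61 (adjusted p = 0.016) and were called, and Homo males changed sign to 0.54 (adjusted p = 0.040). The part of RNA composition in the Lag3 result was not tested beyond these fits.

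Havcr2 (TIM-3, chromosome 11, 46454935 to 46481255, plus strand), a receptor for phosphatidylserine and galectin-9, had 127 to 166 FPKM in WT and 128 to 184 in Cre-positive libraries. Its mean was 154 ± 8.98 FPKM in WT females (n = 4), 169 ± 8.16 in Het females (n = 5) and 169 ± 5.44 in Homo females (n = 5). In males it was 151 ± 16.0 FPKM in WT (n = 5), 154 ± 18.8 in Het (n = 6) and 146 ± 16.8 in Homo (n = 5). The log2 fold changes ran from -0.13 in Homo males to 0.13 in Homo females, with 0.02 in the average (95% confidence interval -0.13 to 0.18; adjusted p = 0.92).

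Its ligand gene Lgals9 (chromosome 11, 78962974 to 78984946, minus strand) had 207.6 to 258.3 FPKM in WT. The 6 libraries of high lncRNA index had 161 to 208.1 FPKM, while the other 15 Cre-positive libraries had 230 to 284. The log2 fold change was -0.31 in Homo males (adjusted p = 0.22) and 0.14 in Homo females (adjusted p = 1). In Homo males it turned to 0.03 without the 6 libraries (adjusted p = 0.96) and to 0.05 with the index as a covariate (adjusted p = 0.89). The average of -0.05 (adjusted p = 0.85) turned to 0.12 with the index as a covariate (adjusted p = 0.32).

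Vsir (chromosome 10, 60346851 to 60372684, plus strand, inside the span of Cdh23 without shared exons) encodes VISTA and was, with Sirpa, among the most abundant members, at a mean of 697 FPKM, higher than 99.6% of the tested genes. WT males had 756, 781, 789, 688 and 661 FPKM and Homo males 499, 620, 508, 691 and 642. The 3 lowest of the Homo males are the libraries of high lncRNA index. Het males ran from 419.8 to 792 FPKM, with the 3 libraries of high index at 578 or less and the others at 733 or more. In females all 14 libraries lay between 686 and 823 FPKM. The log2 fold change of Vsir was -0.40 in Homo males (95% confidence interval -0.74 to -0.07; adjusted p = 0.15), -0.02 in Homo females (adjusted p = 1) and -0.18 in the average (adjusted p = 0.44), and the average was 0.01 with the index as a covariate (adjusted p = 0.97).

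Sirpa (chromosome 2, 129592835 to 129632228, plus strand) had the highest level of the members, a mean of 1049 FPKM, with 889 to 1213 FPKM in WT. The 6 libraries of high lncRNA index had 729 to 1021 FPKM and the other 15 Cre-positive libraries 1057 to 1287. Its log2 fold change was -0.21 in Homo males (adjusted p = 0.47), -0.01 in Homo females (adjusted p = 1) and -0.09 in the average (95% confidence interval -0.31 to 0.12; adjusted p = 0.71). Cd47, the gene of its ligand, had a mean of 122.3 FPKM and -0.14 in the average (adjusted p = 0.49).

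Cd200r1 (chromosome 16, 44765736 to 44794978, plus strand), the receptor for neuronal CD200, had 13.8 to 24.1 FPKM in WT and 14.7 to 24.7 in Cre-positive libraries, ranges that overlap almost fully. The value of 24.1 is that of WT-M-0202, and the other WT males had 13.8 to 16.2 FPKM. The log2 fold change of Cd200r1 was 0.23 in Homo males (adjusted p = 0.31), -0.09 in Homo females (adjusted p = 1) and 0.08 in the average (95% confidence interval -0.10 to 0.25; adjusted p = 0.71).

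Cd86 (chromosome 16, 36603869 to 36666081, minus strand), the costimulatory member, had 212, 201.4, 205.9, 264 and 189.6 FPKM in WT males and 256, 297, 362, 249 and 285 in Homo males. Of the 5 Homo males, 3 lay above the highest WT male. In females WT had 230 to 317 FPKM and Homo 245 to 287. The log2 fold change of Cd86 was 0.35 in Homo males (95% confidence interval 0.14 to 0.55; adjusted p = 0.055), 0.24 in Het males (0.30), 0.05 in Homo females (1) and -0.07 in Het females (1). Under 4 of the other settings (no scaling, quantile normalization, array weights, and a filter at 1 FPKM) the Homo male p passed, at 0.021 to 0.043, with a fold below 1.5. Without the 6 libraries of high lncRNA index it was 0.32 (adjusted p = 0.38) with 2 Homo males left.

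**Figure D3:**
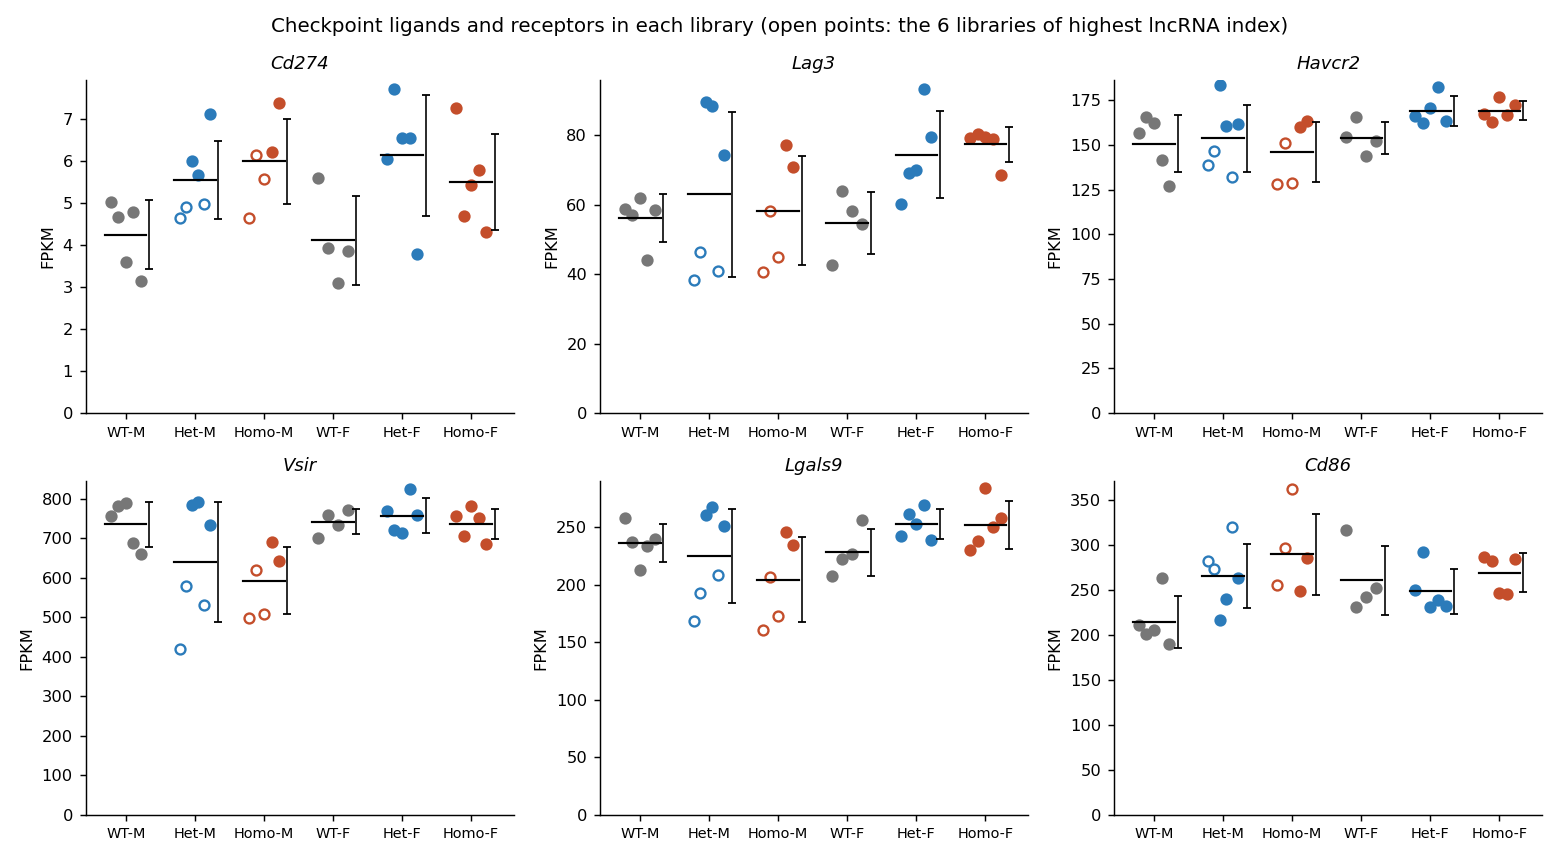
FPKM of Cd274, Lag3, Havcr2, Vsir, Lgals9 and Cd86 in each of the 30 libraries by group, with group means (lines) and SD (bars); open points are the 6 libraries of highest lncRNA index. Open points lie lowest among the male Cre-positive libraries for Lag3, at 38.3 to 58.1 FPKM, and for Vsir, at 419.8 to 620, and for Cd86 they include the highest, at 362.

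Of 24 other inhibitory receptor genes, 19 were tested, and 2 were called in Cre-positive against WT, both higher, and 0 lower. Of all genes, 0.627% were called higher and 0.195% lower. Cd244a encodes 2B4, a SLAM-family receptor of NK cells and myeloid cells, and Cd300lf encodes CLM-1, an inhibitory lipid receptor of myeloid cells. The span of Cd244a overlaps that of Ly9 without shared exons. Mean Ly9 was 11.8 FPKM in WT males, 14.8 in WT females and 21.7 to 33.4 in the Cre-positive groups. The part of Ly9 in the Cd244a result was not tested. Cd244a had 0.961 to 2.72 FPKM in WT and 2.19 to 8.69 in Cre-positive libraries. In females the groups did not overlap, with 1.79, 1.197, 1.32 and 1.22 FPKM in WT, 3.07, 6.74, 4.02, 2.51 and 3.38 in Het, and 2.83, 4.30, 4.16, 4.90 and 3.75 in Homo. In males 2 WT libraries, at 2.72 and 2.199 FPKM, lay within the Cre-positive range, which began at 2.191.

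The log2 fold change of Cd244a was 1.29 in the average (95% confidence interval 0.91 to 1.67; adjusted p = 0.000119), higher in Homo males by 1.25 (adjusted p = 0.023), and uncalled in Het males at 1.09 (adjusted p = 0.10), Homo females at 1.46 (0.071) and Het females at 1.38 (0.070). The 6 libraries of high lncRNA index had 4.23 to 8.69 FPKM and the other 5 male Cre-positive libraries 2.19 to 4.195. Without the 6 the average was 1.06 (adjusted p = 0.0020), and the Homo male change was 0.73 and lost its call (adjusted p = 0.53). Cd48, the gene of the 2B4 ligand, had a mean of 161 FPKM and a log2 fold change of 0.14 in the average (adjusted p = 0.39).

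Cd300lf had 0.369 to 2.16 FPKM in WT and 1.57 to 4.94 in Cre-positive libraries. It was called in the average, at a log2 fold change of 1.12 (95% confidence interval 0.69 to 1.54; adjusted p = 0.0031), and within sex it stood at 0.67 in Homo males (adjusted p = 0.22), 1.13 in Het males (0.14), 1.15 in Homo females (0.64) and 1.51 in Het females (0.082), all uncalled. Without the 6 libraries of high index the average was 1.01 (adjusted p = 0.031). Het-F-0206 had 4.43 FPKM, the highest of the females, and without it and Het-M-0199 the average was 1.07 (adjusted p = 0.0070).

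**Figure D4:**
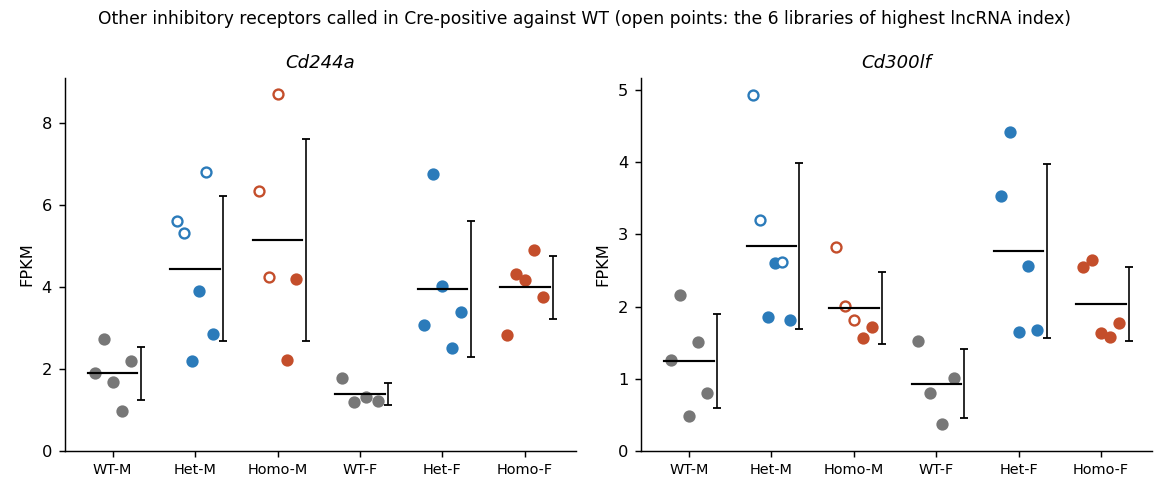
FPKM of Cd244a and Cd300lf in each library by group, with group means (lines) and SD (bars); open points are the 6 libraries of highest lncRNA index. For both genes the female Cre-positive libraries lie above the WT females, from 2.51 FPKM for Cd244a and 1.57 FPKM for Cd300lf.

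The most abundant receptors of that list were Siglech, a sialic acid receptor used as a microglial marker, at a mean of 1284 FPKM, and Lair1, a collagen receptor, at 531. Their log2 fold changes in the average were -0.08 (adjusted p = 0.65) and 0.11 (adjusted p = 0.54). The median over the 19 was 0.08, beside 0.01 over all genes. Genes entered this list by name, and whether each of these receptors inhibits microglia was not tested.

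Of 20 other ligands and costimulatory genes, 14 were tested and 0 was called in the average (limma, 4 at an unadjusted p under 0.05, a threshold that 14.5% of all genes passed). In Homo males 1 was called higher and 1 lower, where 1.17% of all genes were called higher and 0.645% lower. Cd40, a receptor for T cell help, was higher by 1.49 (adjusted p = 0.032), with 0.137 to 0.642 FPKM in WT males and 0.619 to 1.76 in Homo males. In females its log2 fold change was 0.22 in Homo (adjusted p = 1) and 0.26 in Het (adjusted p = 1), and WT females, at 0.686 to 1.22 FPKM, lay within the range of the Homo males. Lgals3, the gene of galectin-3, fell by 0.93 on the log2 scale (adjusted p = 0.049), from 2.11 to 3.95 FPKM in WT males to 1.06 to 2.43 in Homo males. Both calls were lost without the 6 libraries of high lncRNA index with 2 Homo males left, at a log2 fold change of 1.49 for Cd40 (adjusted p = 0.33) and of -0.41 for Lgals3 (adjusted p = 0.77).

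Genes that carry the PD-1 signal inside the cell were examined next. Of 16, 14 were tested, and 0 was called in any contrast against WT (limma; at an unadjusted p under 0.05, 5 in Homo males, 2 in Het males, 1 in Homo females, 0 in Het females and 3 in the average, each lower). Over all genes, 22.5% passed that threshold in Homo males and 14.5% in the average. Ptpn6, the gene of SHP-1, had a mean of 284 FPKM and a log2 fold change of 0.09 in the average (adjusted p = 0.39), and Inpp5d, the gene of the phosphatase SHIP1, had 261 FPKM and -0.09 (adjusted p = 0.50). Akt2, a kinase downstream of PI3K, named after its values were seen, was lower in the average by a log2 fold change of -0.31 (adjusted p = 0.042), a fold under 1.5. Of 25 genes known to regulate Pdcd1 or Cd274, 22 were tested and 0 was called against WT in any contrast (limma; 3, 2, 0, 2 and 2 at an unadjusted p under 0.05, in the same order, where the shares over all genes were 22.5%, 14.2%, 3.49%, 3.95% and 14.5%). Ifngr1, a chain of the interferon gamma receptor, had a mean of 700 FPKM and -0.16 (adjusted p = 0.35). Cmtm6, which stabilizes PD-L1 at the cell surface, had 539.6 FPKM and -0.19 (adjusted p = 0.39).

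The genes most like Pdcd1 were sought by the mean absolute difference of centred log2(FPKM + 0.1) over the 30 libraries. They were Cst7, a cysteine protease inhibitor (0.25), Hcar2, a receptor for hydroxybutyrate and niacin (0.32), Rxrg, a retinoid X receptor (0.37), Chst1, a sulfotransferase (0.41), and Tnfsf8, the CD30 ligand (0.45), where the median over all genes was 0.88. Cst7 had 8.67 FPKM in WT females and 10.2 in WT males, and 43.2 to 50.9 in the 4 Cre-positive groups. Tnfsf8 had 0.722 and 0.800 FPKM in WT males and females and 1.52 to 2.67 in the Cre-positive groups. Het-F-0206, where Pdcd1 was highest, was among the libraries over which likeness was measured, so high values there follow from the choice. It had 85.3 FPKM of Cst7, 27.8 of Hcar2, 5.75 of Rxrg, 68.9 of Chst1 and 6.25 of Tnfsf8. None of the other tested members was among the 20 genes nearest to Pdcd1. Pdcd1lg2 fell under the filter and was not ranked.

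**Figure D5:**
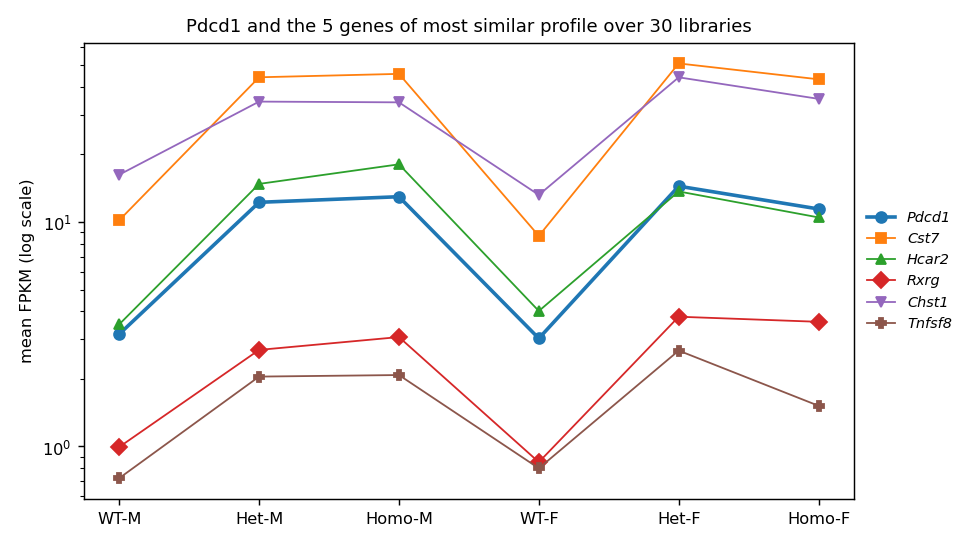
Mean FPKM (log scale) in each group for Pdcd1 and the 5 genes whose centred log2 profile over the 30 libraries differed least from it. The genes were chosen for their likeness to Pdcd1, so the shared step up from WT, for Pdcd1 from 3.17 to 12.2 FPKM in Het males, is fixed by that choice.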

How the data were processed

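Microglia RNA was sequenced from 30 mice in 6 groups of genotype and sex, taken from the sample labels. The authors aligned reads to mm10 and estimated gene levels with RSEM, per their methods and processing notes, and deposited 1 table of FPKM values, which correct fragment numbers for transcript length and for the size of the library. DESeq2, named in the submitters' notes, was used by the authors on counts that are not analysed here. The table has 6 further columns that match no listed sample, and they were not used. The paper states that 6 samples were removed for poor unique mapping and high duplication, and that they were outliers in a principal component analysis. Whether these are the 6 columns was not tested.

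FPKM values were scaled per library by the median of ratios over 11436 genes (factors 0.944 to 1.15), and genes with a mean of at least 0.1 FPKM were tested with limma 3.58.1 in R 4.3.3 on log2(FPKM + 0.1), with an intensity trend and the 6 groups in 1 fit, which understates changes of low genes. Calls needed a Benjamini-Hochberg adjusted p under 0.05 and a fold over 1.5. Cre-positive against WT is the mean of the 4 contrasts within sex. The script was checked on simulated data. Printed FPKM values are as deposited, without the scaling. Total read numbers are not in the table; from the steps between low values, depth relative to the median library was 0.667 to 1.42, and the number of mice limits the precision. For the lncRNA index, log2 levels were averaged over 668 lncRNA genes and over 10255 protein-coding genes, and the second average was subtracted from the first, with the median library set to 0. P-values measure only the spread between these samples.

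Members and gene lists were chosen with earlier results of these data known. Named genes were all members, Bin1 and Cx3cr1, from each other list the called genes and the 2 most abundant, and the 5 genes most like Pdcd1. Lilrb4a had no match and is not analysed here. Of the marker lists, in the order WT then Cre-positive, summed FPKM ranged over 17.8 to 48.9 and 12.2 to 41.8 for border macrophages, 6.35 to 20.8 and 5.14 to 14.0 for monocytes, 6.80 to 349 and 0 to 189.6 for neutrophils, and 22.5 to 273 and 21.1 to 149 for neurons, glia and endothelium; their part in the results was not tested. Other pseudocounts, filters, scalings, covariates and sets of libraries were tried.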

Additional observations from a re-analysis of the deposited data

Results flagged for a closer look

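Within a group, single libraries stood far from the others in 8 of the 96 combinations of group and gene examined (10 members, Bin1, Cx3cr1, Cd244a, Cd300lf, Cd40 and Lgals3), where about 1 in 20 would by chance. In Het females, 3 of these came from Het-F-0206. It had 27.5 FPKM of Pdcd1 where the other 4 had 9.61 to 11.8, 42.7 FPKM of Bin1 where they had 152 to 164, and 13.9 FPKM of Cx3cr1 where they had 1048 to 1243. A genotype other than the labelled one was not tested.

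In WT males, 3 came from WT-M-0202. It had the lowest Lag3, 44.1 FPKM against 57.1 to 62.0, the highest Cd200r1, 24.1 FPKM against 13.8 to 16.2, and 0.0522 FPKM of Pdcd1lg2, which the other 4 listed at 0. Homo-F-0238 had the lowest Lag3 of its group, 68.6 FPKM against 78.9 to 80.6. WT-F-0207 had the highest Cd40 of its group, 1.22 FPKM against 0.686 to 0.771.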

How the results depend on the processing

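No paired analysis was made, because each mouse is in 1 group and the sample titles name no litter. Of the members other than Pdcd1, log2 fold changes against WT that were uncalled changed sign under some settings. The largest of them in size were -0.31 for Lgals9 in Homo males and -0.31 for Vsir in Het males. Those of Pdcd1 in Homo against Het changed sign as well, and the cause was not tested. Without scaling the values were in Homo-M Lag3 0.0229, in Het-M Havcr2 0.029. With quantile normalization the values were in Het-F Vsir -0.0204. With array weights the values were in Homo-M Lag3 0.0125, in Het-F Vsir -0.0013. With the range of mouse numbers as a covariate the values were in Homo-M Havcr2 0.0398, Lag3 0.40 and Sirpa 0.0514, in Het-M Havcr2 0.0474 and Lgals9 0.00332, in Het-F Vsir -0.0941, Cd200r1 -0.00444 and Sirpa -0.0723, in the average Lgals9 0.00771. With the mice of higher number alone the values were in Homo-M Havcr2 0.11, Lag3 0.41, Sirpa 0.045 and Lgals9 0.0279, in Het-M Havcr2 0.0621 and Lgals9 0.0424, in Het-F Vsir -0.0168, Sirpa -0.0249 and Cd86 0.0169, for Homo-M against Het-M Pdcd1 -0.0119, in the average Lgals9 0.0602. Without Het-F-0206 and Het-M-0199 the values were in Het-M Lag3 -0.12, in Het-F Cd200r1 -0.0479, for Homo-F against Het-F Pdcd1 0.0129. With the lncRNA index as a covariate the values were in Homo-M Havcr2 0.16, Lag3 0.54, Sirpa 0.20 and Lgals9 0.0463, in Het-M Havcr2 0.15, Sirpa 0.0799 and Lgals9 0.0723, in Homo-F Vsir 0.0506 and Sirpa 0.0629, in the average Vsir 0.0119, Sirpa 0.10 and Lgals9 0.12. Without the 6 libraries of highest lncRNA index the values were in Homo-M Havcr2 0.11, Lag3 0.41, Sirpa 0.0459 and Lgals9 0.0288, in Het-M Vsir 0.10, Havcr2 0.20, Sirpa 0.18 and Lgals9 0.17, in the average Sirpa 0.0647 and Lgals9 0.12. Counts of called members moved in 2 cases, to 2 with the mice of higher number alone in Cre-positive against WT (Cd274) and to 2 with the lncRNA index as a covariate in Homo-F (Lag3). Leaving out 1 library at a time gave ranges that cross 0, -0.0666 to 0.0691 for Cd200r1 in Het-F, -0.36 to 0.0127 for Pdcd1 in Homo-F against Het-F, -0.0245 to 0.0488 for Vsir in Het-F, -0.028 to 0.0937 for Sirpa in Het-F, -0.12 to 0.0151 for Havcr2 in Het-M, -0.13 to 0.17 for Lag3 in Het-M, -0.0555 to 0.0117 for Vsir in Homo-F, -0.0678 to 0.0518 for Sirpa in Homo-F, -0.20 to 0.0822 for Lag3 in Homo-M, -0.00485 to 0.16 for Pdcd1 in Homo-M against Het-M, -0.12 to 0.0163 for Cd86 in Het-F and -0.012 to 0.0468 for Havcr2 in the average. The alternative of fitting the compared groups alone gives no value for the average. The call of Cd244a in Homo males was lost when Homo-M-0093, Homo-M-0109 or WT-M-0178 was left out. The lncRNA index and the set of 6 libraries were chosen as alternatives after the data were seen. Depth and the number of mice limit what can be said of Pdcd1lg2 and of differences below a fold of 1.5.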
